A study of Mus musculus with 4 samples.

Results

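The control array of a 4-array series was taken on its own, as a record of what unstressed mouse fibroblasts express. It carried RNA of NIH-3T3:Per2-Luc cells, the mouse embryonic fibroblast line NIH-3T3 with a luciferase reporter driven by the *Per2* promoter, given 0 mM H2O2 and fresh medium, and its label places it at 4 h. The paper calls the fresh medium a comparably weak resetting stimulus, so these cells were not left undisturbed. The control array is 1 of 4 samples. The other 3 carried RNA of the same cells after a cOS-pulse, collected at 4 h, 20 h and 32 h. The pulse is a critical oxidative stress of 5 mM H2O2 for 10 min. All 4 groups share the reporter line, and each group is 1 array, so there are no replicates, no test was possible, and every count and value below describes single arrays. The members of the description are the 30174 gene names measured on the control array by 39428 probes of 60 bases, and the other arrays are used only to show where the control stood apart from them.

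Fibroblasts make and maintain connective tissue. They secrete collagens, fibronectin and proteoglycans, remodel them with proteases, grip them through integrins and a contractile cytoskeleton, and divide in response to serum growth factors such as PDGF and FGF. NIH-3T3 is an immortal line that stops dividing when crowded, and the study's methods state that the cells were grown to confluence in medium with serum before treatment. Cells in culture also meet more oxygen than in tissue, and antioxidant enzymes and chaperones belong to their usual household.

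Of the 39428 probes, 21057 (53.4%) were detected, which here means that at least 50% of a probe's spots were flagged by the scanner software as well above background. By gene name, with the brightest probe taken for each, 16303 of 30174 (54.0%) were detected, and 13749 of the 24103 names that are gene symbols (57.0%). Signals are background-subtracted intensities on a linear scale in the scanner's own units. Detected probes ran from 40.9 to 428518 with a median of 923. Of them, 18344 gave at least 100 units, 10242 at least 1000, 3083 at least 10000 and 585 at least 100000. Among 153 negative control spots the median was 10.0 and the 99th percentile 50.5, and 3 of them carried the flag. The software's own error for a spot was 10.0% of the signal above 1000 units and 17.1% between 40 and 100 units. It covers the spot and not the culture. The brightness of a probe also depends on its sequence, so the order of probes by signal is not an order of transcript levels. Among 3432 genes with several probes, all detected, the brightest and the dimmest probe of a gene lay a median of 4.65-fold apart.

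**Figure D1:**
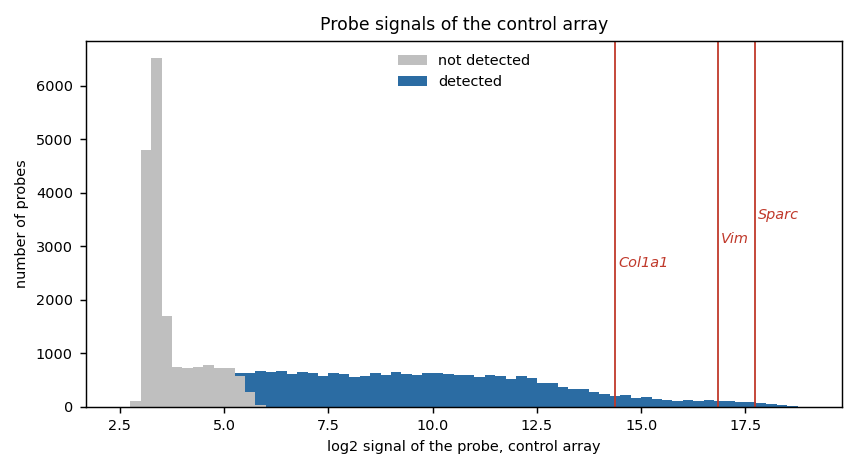
Number of probes (y axis) by log2 signal (x axis) on the control array, with detected probes in blue stacked on undetected ones in gray. Red lines mark the brightest probes of *Col1a1*, *Vim* and *Sparc*, and most undetected probes sit in a narrow peak near the median of the negative control spots, 10.0 units on the linear scale.

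The 3 markers of the label were all detected. *Col1a1*, a chain of type I collagen, gave 21225 units with its probe on chromosome 11 (94813115 to 94813174 in mm9, the build of the array annotation) and ranked 1875th of the detected probes. *Vim*, the intermediate filament of mesenchymal cells, gave 117446 units with a probe on chromosome 2 (13504232 to 13504291) and ranked 472nd. *Sparc*, a collagen-binding matrix protein, gave 216138 units with a probe on chromosome 11 (55208939 to 55208998) and ranked 162nd. All 3 were thus in the brightest 8.90% of detected probes. Of 22 fibroblast and mesenchymal markers, 20 were detected, with a median of 25353 units over the whole list, beside 54.0% and 76.0 units over all gene names. Decorin (*Dcn*), a proteoglycan that binds collagen fibrils, gave 410785 units and *S100a4*, a calcium-binding protein known as fibroblast-specific protein, gave 313547. The collagen chain *Col1a2* gave 139933 units, lumican (*Lum*) 88707 and fibronectin (*Fn1*) 87276. Of the PDGF receptors that serum acts on, *Pdgfra* gave 24317 units and *Pdgfrb* 7179.7. The undetected members were *Postn*, the matrix protein periostin, at 11 units, and *Fap*, a surface protease of activated fibroblasts, at 9.09, both with a single probe at the level of the negative controls. The 2 probes of *Sparc* show how far a rank depends on the probe. They read the same gene 30.4-fold apart, at 216138 and 7119.6 units. Neither holds a 16-base word found in probes of at least 10 gene names, and runs shared with fewer names are not marked. Their first 30 bases are shown for this difference in signal (lower case, 5′ to 3′):
Sparc, brighter probe: ggctgttccgcctggggataaggtgctaac
Sparc, dimmer probe: acagcaatgtgaagagcttgacaagtcttt

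Markers of other cell types were mostly undetected. Over 10 lists for other lineages, 49 of 158 genes (31.0%) were detected, with a median of 15.3 units, and 11 of the 49 gave at least 1000. Of 17 markers of skeletal and cardiac muscle, 1 was detected, the heart factor *Nkx2-5* at 611 units, while the master regulators *Myod1*, *Myog*, *Myf5* and *Myf6* stood between 9.51 and 10.8. Pluripotency and germ cell markers were detected in 4 of 15 cases. These were the pluripotency genes *Nanog* at 351 units and *Utf1* at 190.2 and the sperm protamines *Prm2* at 126 and *Prm1* at 105, each by its only probe, while the factors *Pou5f1* at 10.0 units and *Sox2* at 11 were undetected. Sensory and hair genes were detected in 3 of 14 cases, liver and pancreas markers in 4 of 15, cartilage and bone markers in 4 of 14, adipocyte markers in 4 of 12 and blood cell markers in 6 of 18. The pan-leukocyte marker *Ptprc* (10.0 units), the E-cadherin gene *Cdh1* (9.63), the epithelial adhesion gene *Epcam* (10.6), the hepatocyte gene *Alb* (34.0) and the fat cell hormone gene *Adipoq* (10.5) were all undetected. Epithelial and keratinocyte markers were detected in 6 of 20 cases. Endothelial markers were detected in 7 of 15 (46.7%), not far below the 54.0% of all gene names, with a median of 11.1 units. The neuronal and glial markers, detected in 10 of 18 cases with a median of 51.2 units, came near the share over all gene names.

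The bright exceptions were checked probe by probe. *Itgam*, an integrin of myeloid cells, gave 22569 units by 1 probe, and 58.4 and 30.1 by the other two. *Trp63*, a keratinocyte regulator, gave 5707 by 1 probe, and at most 19.2 by its other 3. The endothelial VEGF receptor gene *Kdr* gave 3406 and 9.85 units, and the T cell coreceptor gene *Cd4* gave 1623 and 19.9. Of the 49 detected genes, 17 had at least 1 undetected probe. Over all gene names, 16303 were detected by the brightest probe and 14386 with all their probes, and on the fibroblast list 20 and 19. *Snap25*, a neuronal vesicle protein, gave 16756 units by its only probe. *Csf1r*, the macrophage growth factor receptor, gave 1265, 335 and 10.2. All probes were detected for the remaining bright members. They were the bone matrix and wound gene *Spp1* (7315 units), the cartilage regulator *Sox9* (1941), the vesicle protein gene *Syp* (1487), the inner ear gene *Otof* (1101) and *Lpl*, lipoprotein lipase, with 2 detected probes of 3915 and 417 units. The bright probes of *Itgam* and *Snap25* carry runs of a CA repeat. In the 30-base stretches below, capitals mark the longest run shared with a probe of another gene:
Itgam, bright probe: acacACACACACACATATACACACACtgct
Snap25: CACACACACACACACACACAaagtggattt
Probes that hold a 16-base word found in probes of at least 10 gene names numbered 367. Of these, 91.6% were detected with a median of 11519 units, against 53% and 66.3 units among all others. For the 210 whose word is a simple repeat, the share was 95.2% and the median 15588 units. Which RNA such a probe reads was not tested.

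**Figure D2:**
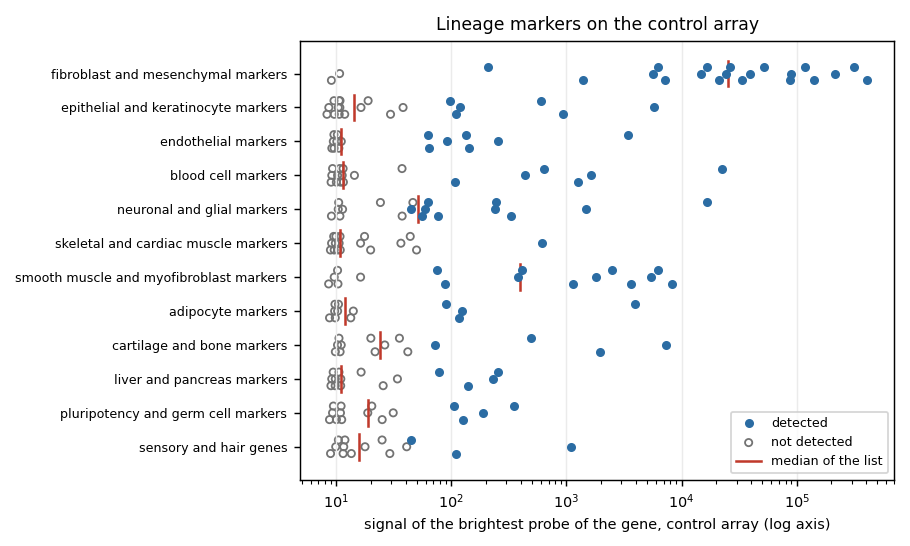
Signal of the brightest probe of each marker (x axis, log scale) by lineage list (y axis) on the control array, with filled points detected, open points not detected and a red line at the median of the list. The fibroblast markers, with a median of 25353 units, stand to the right of the other lists, and the 158 markers of the 10 other lineages have a median of 15.3 units.

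Smooth muscle and myofibroblast genes stood between those lists, with 11 of 16 detected and a median of 394 units. The tropomyosins *Tpm1* and *Tpm2*, which fibroblasts use in stress fibers, gave 8247 and 5443 units, and *Tagln*, the actin-binding transgelin, 6253. *Acta2*, the smooth muscle actin that marks myofibroblasts, gave 1139.9. *Myocd*, the regulator of the smooth muscle program, was undetected at 10.3 units, as were its late targets *Myh11* (10.4), *Cnn1* (9.61) and *Lmod1* (8.60) and the intermediate filament gene *Des* (16.3).

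Among transcription factors of mesenchyme, 27 of 37 were detected. *Twist2* gave 56029 units, *Nr2f1* 28266, *Prrx1* 18911 and *Prrx2* 12451. The factors that repress E-cadherin, *Snai2* (6255 units), *Zeb1* (5721), *Snai1* (5452) and *Zeb2* (2599), were all detected beside the undetected *Cdh1*. The undetected factors included *Tcf21* (8.73), *Foxd1* (8.73), *Meox2* (9.02), *Tbx5* (20.5) and *En1* (37.2). Hox genes, which keep a record of position along the body axis, were detected in 17 of 39 cases (43.6%), beside 54.0% of all gene names. In groups 1 to 9, 17 of 27 were detected, and in groups 10 to 13, which pattern the posterior body and the distal limb, 0 of 12 were. Groups 3, 5 and 6 were detected in full, 3 of 3 each. Groups 1, 2, 7, 8 and 9 had 1 detected gene each, of 3, 2, 2, 3 and 4 measured. *Hoxa7* gave 11019 units, *Hoxc6* 2792, *Hoxd8* 2204 and *Hoxd4* 1916. The undetected *Hoxa10*, *Hoxa11*, *Hoxd10* and *Hoxc13* stood between 9.61 and 9.98 units. *Hoxc10*, undetected at 24.4 in the control, was detected at 4 h (44.3) and 32 h (48.0) after cOS-pulse.

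Core clock genes, the reason the reporter line was made, were detected in 14 of 20 cases with a median of 197 units. The activators *Arntl* and *Clock* gave 1051 and 1197 units, and the repressors *Cry2* and *Per1* gave 2509 and 1897. The output factors *Tef* and *Nfil3* gave 8608 and 7151 units, and *Dbp* gave 1069.5 and 1029.9 by its 2 probes. *Per2*, whose promoter drives the reporter, fell just short of detection with 43.2 units by its single probe, and *Cry1* just passed with 44.6. *Npas2*, the partner used in place of *Clock* in forebrain, was at 9.18 units.

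Genes of the extracellular matrix were detected in 24 of 40 cases for collagens and in 20 of 22 for collagen processing. Beside the type I chains, type VI collagen, which forms beaded filaments around cells, gave 52374 units for *Col6a1*, 16645 for *Col6a3* and 2199 for *Col6a2*. *Col5a1*, which starts fibrils, gave 6365 units and *Col16a1*, a collagen that sits on the surface of fibrils, 56579. *Col3a1*, usually abundant in loose connective tissue, gave 1383. Collagens of cartilage were undetected for *Col2a1* (11.1 units), *Col9a1* (26.4) and *Col11a1* (8.92), and *Col10a1* was detected at 72.0. Matrix glycoproteins and proteoglycans were detected in 31 of 47 cases (66.0%), with a median of 714 units over the list. Among those detected the median was 7199 units, beside 1217 over all detected gene names. The basement membrane linker *Nid1* gave 57525 units, the laminin chains *Lamb1* and *Lamc1* 28267 and 14949.9, and *Thbs2*, a regulator of matrix assembly, 40154. Fibrillin 1 (*Fbn1*) gave 208, and the elastic fiber genes *Eln* (20.5) and *Mfap5* (9.11) were undetected, as were *Ogn* (11.2), *Aspn* (10.2) and *Prelp* (8.32), small proteoglycans of the family of decorin and lumican. Of the hyaluronan synthases, *Has2* gave 5323 units while *Has1* and *Has3* stood at 9.71 and 9.01.

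The enzymes that fold and crosslink collagen gave a median of 1945 units over their list. *Pcolce*, which enhances the cutting of procollagen ends, gave 171416 units, *Serpinh1*, the collagen chaperone, 28736, and *Loxl1*, a crosslinking oxidase, 10910.2. Proteases and their inhibitors were detected in 27 of 33 cases. The lysosomal cathepsins *Ctsl* and *Ctsb* gave 300731 and 73788 units, the inhibitors *Timp2* and *Timp1* gave 192267 and 32899, and the gelatinase *Mmp2* and its membrane activator *Mmp14* gave 20978 and 2767. The collagenase gene *Mmp13* (13.9) and *Mmp12*, of macrophages (11.9), were undetected. Integrins and matrix receptors were detected in 25 of 33 cases. The fibronectin and vitronectin receptor chains *Itgb1*, *Itgav*, *Itga5* and *Itgb5* gave 3521, 1574, 552 and 9698 units, and the collagen receptor chain *Itga2* was undetected at 11.1. Cytoskeletal and adhesion genes were detected in 36 of 38 cases with a median of 30672 units, led by *Actb* at 331161, *S100a6* at 210735 and *Lgals1* at 206271. The exceptions were the cadherins *Cdh11* (22.6 by the brighter of 2 probes), known from mesenchyme, and *Cdh3* (10.2), known from epithelium. N-cadherin (*Cdh2*) gave 6091 units.

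Energy metabolism showed the general forms of enzymes and few of the tissue forms. Glycolysis genes were detected in 18 of 19 cases with a median of 31436 units, all but the lactate carrier *Slc16a3* (54.4), and the forms of liver, muscle, sperm and other tissues in 5 of 20 with a median of 13.4. The glucose transporter *Slc2a1* gave 31436 units, while *Slc2a2*, *Slc2a3*, *Slc2a4* and *Slc2a5* stood between 8.91 and 14.1. *Hk1* gave 135700.0 units, *Hk2* 568, and *Hk3* was undetected at 10.4. *Aldoa* gave 141834 units. *Ldha* gave 157075, *Ldhb* 13322 and the sperm form *Ldhc* 10.0. Against the list, *Eno2* and *Eno3*, enolases named for neurons and muscle, gave 3086 and 1546 units, and the pyruvate carboxylase gene *Pcx* 4701. The enzymes peculiar to gluconeogenesis, *Pck1* (9.0) and *Fbp1* (8.01), were undetected, and *G6pc* was detected at 82.0. The citrate cycle was detected in 24 of 25 cases, the exception being *Pdha2* (9.58), the form of male germ cells. *Mdh2* gave 146573 units and *Cs*, citrate synthase, 64039. In the respiratory chain *Cox6a1* gave 259043 units against 32.1 for the muscle form *Cox6a2*, *Cox8a* 179571 against 10.00 for *Cox8b*, and *Cycs* 28511 against 10.2 for the sperm form *Cyct*. Each of these forms is read by its own probes, so only detection is set side by side. All 12 probes for genes of the mitochondrial genome were detected with a median of 138547 units, from *COX1* at 380315 to *ND6*, which lies on the other strand, at 410.03.

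Cholesterol and fatty acid synthesis was detected in 35 of 38 cases with a median of 1706 units. The desaturase *Scd2* gave 36003 units, *Fdps*, which makes farnesyl diphosphate, 10422, and *Sqle*, squalene epoxidase, 8041. Nutrient genes were detected in 25 of 30 cases. The ferritin chains *Ftl1* and *Fth1* gave 275402 and 266808 units, and the amino acid transporter *Slc38a2* 38873. *Slc7a11*, the cystine carrier that feeds glutathione synthesis, was undetected at 8.16 units in the control and gave 1325 at 4 h after cOS-pulse, 6.51 at 20 h and 8.64 at 32 h. It was detected on the 4 h array alone.

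Of 38 receptor tyrosine kinases, which bind growth factors, 25 were detected. *Fgfr1* gave 66584 units, *Axl* 26666 and *Igf1r* 6277. The EGF receptor gene *Egfr* was undetected by all 3 of its probes (24.7, 10.6 and 8.18 units), as were *Kit* (8.42), *Ret* (8.33) and *Erbb3* (24.3). Ligands were detected in 33 of 51 cases, 64.7% beside 65.8% for these receptors and 54.0% for all gene names. *Fgf7* and *Hgf*, factors that fibroblasts send to epithelia, gave 32923 and 8173 units, and *Pdgfa*, *Csf1* and *Vegfa* gave 16861, 13546 and 12916. *Igf2* was undetected at 25.8, *Fgf2* at 30.8, *Bmp2* at 9.56 and *Areg* at 8.33.

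S phase and mitosis genes were detected in 33 of 34 cases, with a median of 3369.7 units. *Pcna*, the clamp of DNA polymerase, gave 25737 units, the helicase subunit *Mcm6* 18282 and the proliferation marker *Mki67* 9843. *Aurkb*, a mitotic kinase, was undetected at 39.7 by its single probe, close under the lowest detected signal. *Cdk4* gave 77020.4 units and the D cyclins *Ccnd3*, *Ccnd1* and *Ccnd2* gave 13920.2, 5645 and 3197, while *Ccne2* (9.56) and the germ cell cyclin *Ccna1* (9.79) were undetected. Of the CDK inhibitors, *Cdkn2c*, *Cdkn2d*, *Cdkn1b* and *Cdkn1a* gave 4179.7, 3099.6, 2998 and 1462 units. *Cdkn2a*, which encodes p16 and p19ARF, was undetected by both its probes (10.9 and 9.26 units), and so was its neighbor *Cdkn2b*, which encodes p15, at 10.4 and 10.3. NIH-3T3 cells are known to lack the *Cdkn2a* locus. The neighborhood on chromosome 4, chosen after its values were seen, had *Klhl9* at 17313 units (88364224 to 88364283), *Gm12603* undetected at 22.1 and *Mtap* at 3412 (88826213 to 88826272). *LOC100505024*, between *Mtap* and *Cdkn2a*, gave 133 units (88863662 to 88863720). The probes of *Cdkn2a* (88920405 to 88920602) and *Cdkn2b* (88952276 to 88952779) followed, then *Dmrta1* at 10.2 (89360601 to 89360660) and *Zfp352*, with 1606 and 28.1 units by its 2 probes. *Klhl9*, *LOC100505024* and *Mtap* were detected on all 4 arrays, and *Cdkn2a*, *Cdkn2b* and *Dmrta1* on none. Whether the locus is deleted in these cells was not tested. Among oncogenes and tumor suppressors 27 of 29 were detected, with *Mdm2* at 15694 units, *Myc* at 3895 and *Trp53* at 606, and without *Mycn* (10.4) and *Mycl1* (11).

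Stress genes were largely detected without a pulse. Heat shock proteins, chaperones for unfolded proteins, were detected in 21 of 28 cases. The constitutive *Hspa8* gave 164633 units, *Hsp90ab1* 134584, the endoplasmic reticulum forms *Hsp90b1* and *Hspa5* 75521 and 64588 and the mitochondrial *Hspd1* 51749. The heat-induced *Hspa1a* gave 234 units, its regulator *Hsf1* gave 2932, and the small chaperone gene *Hspb1* was undetected at 8.30. Antioxidant genes were detected in 36 of 39 cases with a median of 5025 units. The metallothioneins *Mt1* and *Mt2* gave 147448 and 144547 units, the mitochondrial superoxide dismutase *Sod2* 137304, *Prdx5* 135174, *Txn1* 65799 and *Gpx4* 55567. Catalase, which breaks down H2O2, was detected by both its probes, and *Hmox1*, an inducible target of Nrf2, gave 4494 units. *Nfe2l2*, the gene of Nrf2 itself, gave 20558. The undetected members were *Gpx3* (11.4), *Gpx5* (11) and *Gpx6* (9.62), secreted or tissue-bound forms. Glutathione S-transferases were detected in 16 of 22 cases, led by *Gstp2* at 151118 units, and the names *Gstp1* and *Gstp2* are near-identical copies whose probes may share RNA.

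Genes of the unfolded protein response were detected in 21 of 22 cases, with *Atf4* at 77828 units, *Xbp1* at 28036 and *Ddit3* at 3022, and p53 targets and apoptosis genes in 27 of 31, with *Mcl1* at 20650.2 and *Bax* at 15188. *Pmaip1* (8.43), *Perp* (9.24), *Casp1* (11.3) and *Fasl* (10.9) were undetected. Immediate early genes, which answer serum within minutes and fade, were detected in 17 of 22 cases with a median of 379 units. *Jun* gave 59362 units, *Egr1* 3273 and *Fosl1* 8794, whereas *Fos* (25.9), *Atf3* (11.9) and *Egr3* (11.6) were undetected. Interferon and antigen presentation genes were detected in 17 of 29 cases, close to the 54.0% of all gene names. The class I genes *B2m*, *H2-K1* and *H2-D1* gave 65057, 14533 and 13683 units. The class II gene *H2-Eb1* (10.9) and the interferon genes *Ifnb1* (8.67), *Rsad2* (8.03) and *Mx1* (11) were undetected. Chemokines that call in leukocytes were among the brightest signals, with *Ccl2* at 345454 units, *Cxcl5* at 148237 and *Ccl7* at 121969. *Tnf* (9.55), *Il1b* (10.8) and *Il10* (11) were undetected, and 13 of the 22 cytokines and chemokines were detected in all. That share, 59.1%, was also close to the 54.0% of all gene names.

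**Figure D3:**
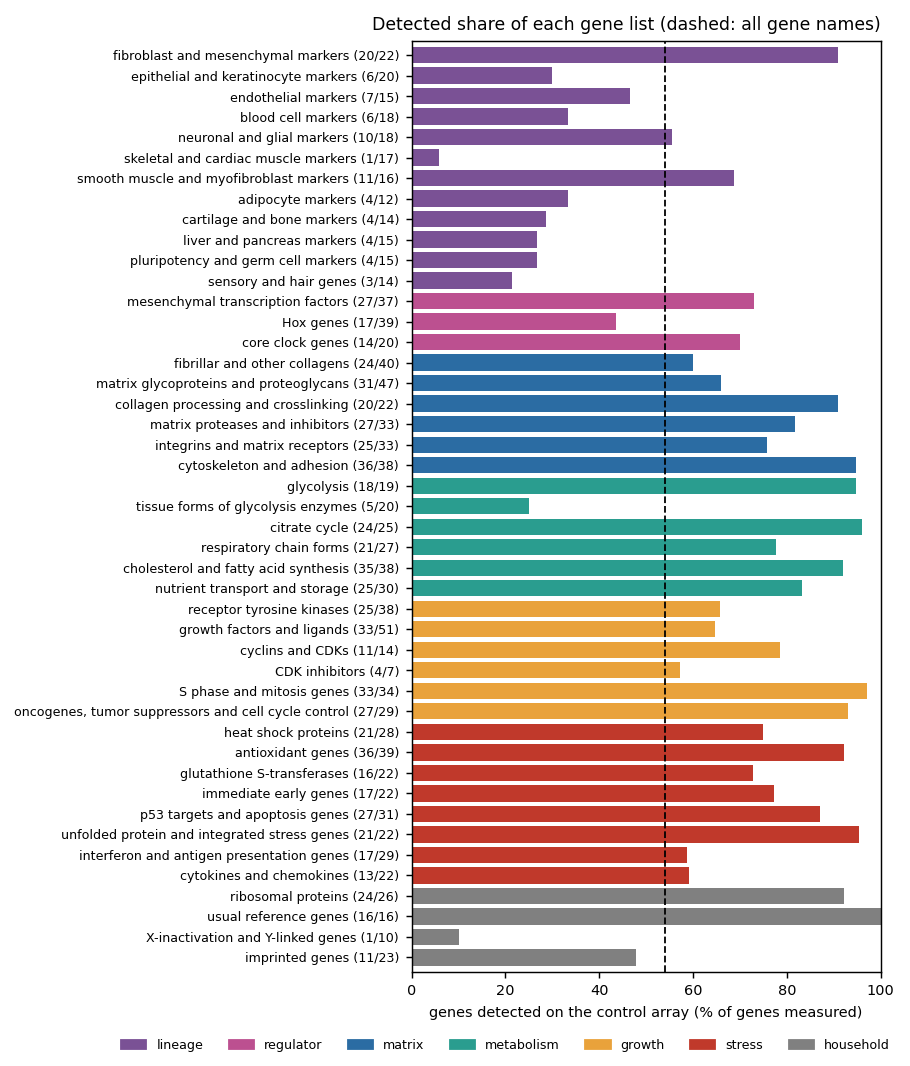
Percent of measured genes that were detected on the control array (x axis, from 0) for 45 gene lists (y axis, with detected and measured genes in parentheses), colored by family. The dashed line is the share over all gene names, 54.0%, and metabolism, stress and matrix lists mostly lie right of it while the lineage lists other than fibroblast and smooth muscle lie near or left of it.

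Gene families defined only by the start of their symbol followed the same order. Of 1100 olfactory receptors 72 were detected (6.55%), and those had a median of 79.8 units. Among vomeronasal receptors the shares were 12.3% of 162 (Vmn1r) and 14.1% of 92 (Vmn2r), among bitter taste receptors 5.71% of 35, and among keratin-associated proteins 41.2% of 51. At the other end, all 47 large and all 29 small subunit proteins of the mitochondrial ribosome were detected, and 50 of 52 and 43 of 46 names of cytosolic ribosomal proteins. Zinc finger proteins named Zfp were detected in 87.1% of 363 cases, with a median of 710 units among those detected. All 16 usual reference genes were detected, from *Ywhaz* at 825 units to *Rplp0* at 408594. Neither *Xist*, the RNA of the inactive X chromosome (10.9 units), nor the Y-linked *Ddx3y* (10.9), *Eif2s3y* (11.6) and *Kdm5d* (9.24) was detected, and of 10 such listed genes *Uty* alone was. It gave 61.2 units by 1 probe and 11.5, undetected, by the other, and it was detected on no other array. Of all 27 probes placed on the Y chromosome 11 were detected (40.7%), among them *Atp5k* at 52467 units, *AA522020* at 21877 and *Ube1y1* at 595, the last with a second probe undetected at 8.19. The probes of *Sry* (21.4), *Usp9y* (19.5), *Zfy2* (10.4) and *Zfy1* (9.27) were undetected. Whether the bright probes placed there read RNA of the Y chromosome was not tested. Of imprinted genes, which are read from 1 parental copy, 11 of 23 were detected (47.8%), not far below the 54.0% of all gene names. Those undetected included *H19* (12.7), *Igf2* (25.8), *Peg10* (8.59) and *Mest* (10.5). By chromosome, between 44.8% (chromosome 6) and 58.9% (chromosome 11) of autosomal probes were detected, and 45.5% on the X chromosome.

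The brightest probes need a reading of their letters. Of the 20 brightest gene symbols, several were ribosomal proteins, such as *Rpl41*, *Rplp0*, *Rpl37a*, *Rplp2* and *Rps12*, and others were *Dcn*, *COX1*, *Ppia*, *Ccl2*, *Fau*, which encodes a fusion of a ubiquitin-like and a ribosomal protein, and *Rn18s*, the ribosomal RNA. The remaining names included *Exosc2* (428518 units, the brightest of all), *Glrx2* (402957), *Slc10a1* (387982), *Elk1* (378049) and *Kctd14* (350016). For 4 of these 5 another probe of the same gene exists. *Elk1* gave 34.7 units by its other probe, *Slc10a1*, a bile acid carrier of liver, 10.5, *Kctd14* 10.1 and 9.53, and *Glrx2* 6777 and 99.8. The 60-base probes of *Glrx2* and *Elk1* share a run of 41 bases although the genes lie on chromosomes 1 and X, and the *Cxcl11* probe on chromosome 5 (321679 units) holds part of it. The 30-base stretch below stands in 4 probes of 4 gene names, including *Med16* on chromosome 10 (264538 units), and its reverse complement in 2 more. It is shown because it is the same in all, and capitals mark the shared letters:
Glrx2, probe bases 19 to 48: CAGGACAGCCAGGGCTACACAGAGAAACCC
Elk1, probe bases 25 to 54: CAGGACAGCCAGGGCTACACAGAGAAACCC
Cxcl11, probe bases 14 to 43: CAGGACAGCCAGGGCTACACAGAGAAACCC
The stretches of *Exosc2* and *Kctd14* in turn stand in probes of *Gm885* and *Ttc38*, which gave 262467 and 315420.0 units, and both are shown in capitals for the same reason:
Exosc2, probe bases 7 to 36: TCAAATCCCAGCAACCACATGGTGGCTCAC
Kctd14, probe bases 12 to 41: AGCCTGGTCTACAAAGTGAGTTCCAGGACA
Repeats of the mouse genome such as B1 and B2 are copied into many transcripts. No repeat annotation was at hand, so the stretches were not assigned to one, and the ranks of these names are left as ranks of probes.

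Promoter letters, which the choice of the array did not use, differed between detected and undetected genes. RefSeq promoter windows (GRCm38.p6, 250 bases before to 50 after the start, the window richest in CG where a gene has several) matched 15574 gene symbols, 9209 of them detected. Vertebrate promoters of broadly used genes often lie in CpG islands, where CG dinucleotides are dense. The median window held 21 CG dinucleotides in detected genes and 5 in undetected ones, and 21 against 4 among genes with a single window. The detected share was 22.1% with 0 to 4 CG, 41.1% with 5 to 9, 64.3% with 10 to 14, 75% with 15 to 19, 82.1% with 20 to 29 and 83.1% with 30 or more. The letters TATAAA on the printed strand, 45 to 11 bases before the start, were in 2.01% of detected and 4.67% of undetected genes, beside 3.09% of all matched genes and 2.22% of all 32851 windows of the table, which include several per gene and genes not matched here. The 15 fibroblast markers with a window, though mostly bright, had a median of 6 CG, whereas 22 mesenchymal transcription factors had a median of 23. These are descriptions of windows, and no site was tested.

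**Figure D4:**
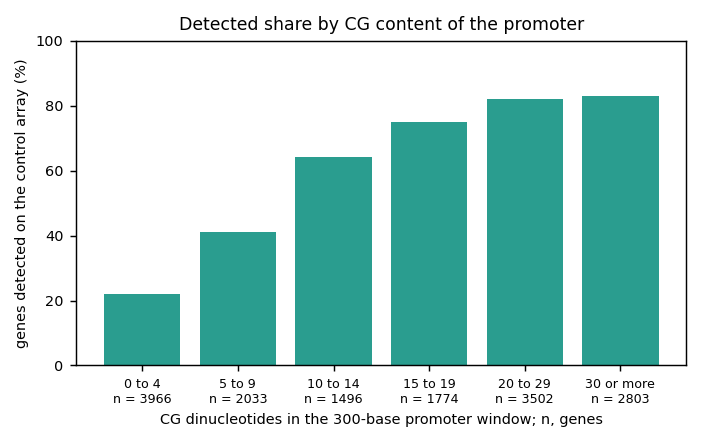
Percent of genes detected on the control array (y axis, from 0) by the number of CG dinucleotides in the 300-base promoter window (x axis, with the number of genes). The bars go from 22.1% with 0 to 4 CG to 83.1% with 30 or more.

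The 250 bases before the start of 5 genes are shown for their range of CG, in capitals (5′ to 3′, RefSeq, GRCm38.p6). *Vim* (chr2:13574061-13574310, + strand) has 8 CG, *Sparc* (chr11:55420081-55420330, − strand) 4 and *Alb* (chr5:90460620-90460869, + strand), undetected at 34.0 units, 2. *Twist2* (chr1:91801211-91801460, + strand), at 56029 units, has 23 CG, and *Cdkn2a* (chr4:89294620-89294869, − strand), undetected, has 40 in the richer of its 2 windows. With the 50 bases after the start, the windows behind the shares above hold 11 CG for *Vim*, 4 for *Sparc*, 3 for *Alb*, 25 for *Twist2* and 45 for *Cdkn2a*.
Vim: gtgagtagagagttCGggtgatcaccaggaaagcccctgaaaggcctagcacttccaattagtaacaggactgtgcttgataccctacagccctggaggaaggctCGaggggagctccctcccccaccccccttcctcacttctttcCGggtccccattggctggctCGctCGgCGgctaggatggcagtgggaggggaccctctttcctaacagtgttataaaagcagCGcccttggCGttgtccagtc
Sparc: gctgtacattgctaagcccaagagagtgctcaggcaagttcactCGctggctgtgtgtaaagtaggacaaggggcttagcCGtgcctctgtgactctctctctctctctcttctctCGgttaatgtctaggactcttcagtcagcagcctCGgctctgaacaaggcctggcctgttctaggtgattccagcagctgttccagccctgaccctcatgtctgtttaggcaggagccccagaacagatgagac
Twist2: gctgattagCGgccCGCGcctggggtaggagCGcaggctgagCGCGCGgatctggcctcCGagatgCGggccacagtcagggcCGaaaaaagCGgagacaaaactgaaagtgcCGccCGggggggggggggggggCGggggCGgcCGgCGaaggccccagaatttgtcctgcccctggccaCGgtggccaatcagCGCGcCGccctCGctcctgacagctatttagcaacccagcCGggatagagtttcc
Alb: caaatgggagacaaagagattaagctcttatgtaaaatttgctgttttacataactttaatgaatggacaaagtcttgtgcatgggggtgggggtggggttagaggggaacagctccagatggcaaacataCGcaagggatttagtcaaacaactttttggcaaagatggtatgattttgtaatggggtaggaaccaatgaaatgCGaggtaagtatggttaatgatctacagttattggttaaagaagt
Cdkn2a: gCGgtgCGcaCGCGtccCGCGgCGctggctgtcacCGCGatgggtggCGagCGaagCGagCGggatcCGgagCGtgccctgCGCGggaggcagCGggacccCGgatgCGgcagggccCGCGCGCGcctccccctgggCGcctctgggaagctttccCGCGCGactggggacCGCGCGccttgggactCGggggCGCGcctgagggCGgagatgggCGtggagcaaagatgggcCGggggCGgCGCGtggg

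Set beside the other arrays, the control shared most of what it detected. Signals of the other arrays are given on its scale, matched at the 75th percentile. Of the 21057 probes detected in the control, 19697 (93.5%) were detected on all 4 arrays, and 311 (0.789% of all probes) on no other array. Those 311 had a median of 73.0 units and reached 603, beside 923 for all detected probes. They were led by *Vmn1r183* with 603 units in the control and 8.79, 7.58 and 10.5 on the arrays at 4 h, 20 h and 32 h. *Atp1b2*, a subunit of the sodium pump, had 325 units in the control and 13.7, 7.15 and 9.67 on the others. *Pik3cd*, a lipid kinase known from leukocytes, had 318 units and 34.5, 25.6 and 19.3. *Fmo5* (312 units), *St6gal2* (306), *1700129O19Rik* (264), *Dydc2* (254), *E130309D02Rik* (238), *Gpr112* (233) and *Zfp783* (232) followed. Of 333 listed genes that were undetected in the control, 97 (29.1%) were detected on at least 1 other array and 4 on all 3, beside 20.7% of all 13871 undetected gene names. The 4 were *Cox6a2*, *Crygd*, *Pax3* and *Tap1*, none above 170 units on any array. Conversely, 711 of the 744 listed genes detected in the control were detected on all 4 arrays. Detection limits differed between arrays. The array at 4 h detected 59.1% of probes against 53.4% in the control, with a lowest detected signal of 29.7 against 40.9, unscaled. Some of the 97 genes differed little, such as *Gsta3* with 37.0 units in the control and 39.0 at 4 h. Others differed widely, such as *Slc7a11* with 8.16 and 1325. How much of the 29.1% comes from the detection limits was not tested.

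At least 2-fold higher in the control than on each other array were 221 probes (0.561%), of which 60 were detected on all 4 arrays and 124 in the control alone, and 189 gene names (0.626%) by the brightest probe. At least 2-fold lower than on each were 21 probes (0.0533%) and 14 gene names (0.0464%). With 1 control array, a gene that stood apart in this culture alone cannot be told apart from one that answers the pulse. The control's label gives 4 h, and the arrays at 20 h and 32 h have no control of their own hour. On those arrays a change with hours in culture cannot be told apart from an answer to the pulse either. *Ctgf*, a matricellular target of the YAP and serum response pathways, had 1067 units in the control and 57.2, 137 and 115 at 4 h, 20 h and 32 h, and was thus 7.78-fold or more above each other array. *Acta2* had 1139.9 units in the control and 164, 96.5 and 132 on the others, 6.95-fold or more. *Wisp2*, of the family of *Ctgf*, had 993 units and 171, 107.5 and 109.7. *Thbs1*, an adhesive glycoprotein, had 1735 units and 477, 552 and 666, and *Vcl*, the vinculin of focal adhesions, 2206 and 794, 619 and 585. The homeobox gene *Prrx2* had 12451 units and 2332, 3067 and 2342, and cyclin D1 (*Ccnd1*) had 5645 and 2011, 2511 and 2293. These genes were chosen for being higher in the control than on each other array, so their shared direction is not a finding. *Impg2* (447 units in the control) was the second of the list by the size of its smallest difference, and its highest other signal was 42.4.

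In the other direction *Cdkn1a*, the p53 target that halts the cell cycle, had 1462 units in the control and 17369, 3596 and 3643 on the others. *Trp53inp1*, another p53 target, had 1865 units and 6042, 4001 and 4141. *Insig1*, which holds back cholesterol synthesis, had 430.3 units and 1211, 1266 and 1440.5, and *Tm7sf2*, a sterol reductase, 1663 and 4304, 7040.1 and 13763. The rest of the 10 symbols furthest below were *AI854703* (41.5 units in the control, undetected, against at least 120.2), *0610010O12Rik* (29.4, undetected), *2310034O05Rik* (65.9), *Skint7* (673), *9030617O03Rik* (103), *LOC100504864* (47.6) and *Rgs2* (94.7), a brake on G protein signals. The p53 and sterol lists each held 2 genes lower in the control, of 31 and 38 measured, and the CDK inhibitors 1 of 7. Over all gene names the share was 0.0464%. Higher in the control were 3 of 16 genes of the smooth muscle list, 2 of 37 mesenchymal transcription factors and 2 of 51 ligands. Some other lists held 1, and the share over all gene names was 0.626%. The fibroblast list held 0 of 22 in either direction, which shares this small would also give.

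**Figure D5:**
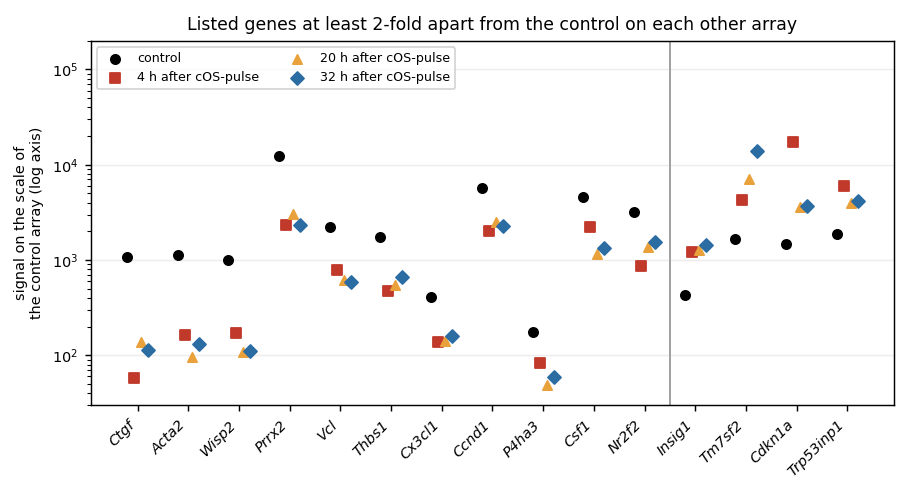
Signal on the scale of the control array (y axis, log scale) of listed genes that were detected on all 4 arrays and at least 2-fold higher (left of the gray line) or lower (right) in the control than on each other array, with 1 point per array. Where a gene has several probes, the brightest one that met the rule is drawn. For *Ctgf* the control stands at 1067 units and the other arrays between 57.2 and 137.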

How the data were processed

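Total RNA was labeled with Cy3 and hybridized to one-color mouse arrays (4x44K v2) on 1 slide, with 1 array per condition. The intensity of each spot, deposited by the authors, came from Agilent Feature Extraction 10.7.3.1, which subtracts background and gives surrogate values to spots at background level. The deposited series table holds each signal as a ratio to a constant of its array, and all 44397 spots followed it.

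For each probe, log2 of the deposited intensity was averaged over spots without an outlier flag (133 spots flagged on the control array, none saturated), and 1 probe without such a spot was left out. The authors deposited per-spot flags, and detection asked that 50% or more of a probe's unflagged spots stood well above background. The other arrays were matched to the control at the 75th percentile. An array below detection was taken at the higher of its own signal and its lowest detected one. Gene names are those of the array, by the brightest probe, and 1077 of 1081 listed symbols were found. The arrays' number limits the precision.

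Named genes are listed genes, the 20 brightest symbols and the 10 furthest apart from the other arrays, and a few of them are not reported here. The lists and this description were chosen with earlier results of these data known. Of the steps, only the comparison of the control with the other arrays was tested on simulated data. Python 3.11.15, pandas 2.3.3, R 4.3.3 and limma 3.58.1 were used. Significance Analysis of Microarrays, which the study's methods name, was not run, since each group is 1 array.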

Additional observations from a re-analysis of the deposited data

How the results depend on the processing

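No paired analysis was possible because each group is 1 array. The number of detected genes stayed within 1.5 times of 16303 under all alternatives tried, from 14386 with all probes of a gene detected to 21259 with the flag for positive and significant signal. That flag moved 10 of the 45 lists by more than 1.5 times, all of them short of 54.0% before, such as skeletal and cardiac muscle (8 genes in place of 1) and epithelial markers (10 in place of 6). The demand that all probes be detected moved 4 lists, among them blood cell markers (1 in place of 6). Of the 20 brightest symbols, 13 remained with the mean minus local background signal and 13 with normexp correction. Probes higher in the control numbered 89 with normexp, 465 and 79 at thresholds of 1.5-fold and 3-fold and 568 without a detection filter, in place of 221. Probes lower in the control numbered 41 without scaling, 6 with normexp, 171 and 0 at 1.5-fold and 3-fold and 155 without a detection filter, in place of 21. Without scaling, 178 were higher and 41 lower. Leaving out probes with a shared 16-base word, an alternative chosen after seeing the data, gave 16069 detected genes. Scaling shifted the median log2 difference of the control from the arrays at 4 h, 20 h and 32 h from -0.17, -0.0021 and 0.0070 to 0.11, -0.33 and -0.17 without scaling. The smallest difference of *Ctgf* ranged from 2.53 to 2.97 over all scalings and background corrections tried, that of *Cdkn1a* from -1.50 to -1.28, and that of *Ccnd1* from 0.84 to 1.22, which is below 2-fold with spike-in scaling or none. The smallest difference of *Tm7sf2* was -0.97 with spike-in scaling, also below 2-fold.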
